A study of Mus musculus with 4 samples.

Results

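The transcription factors that maintain blood stem cells were followed across stem and progenitor cells of mice carrying JAK2V617F, the mutation typical of human myeloproliferative neoplasms, with and without a drug against the BET bromodomain proteins. The set held 9 genes given by symbol: Hlf, Mecom, Meis1, Mn1, Tcf15, Prdm16, Runx1, Erg and Myb. It was not picked by the size of any difference, although earlier results of these data were known. All 9 were on the array, with 12 probes, of 21154 genes and 28026 probes that carried a single gene symbol. RNA from 4 sorted populations was each hybridised to 1 one-colour Agilent array on the same slide, so every group was 1 array. There was no replicate, and no test between groups could be made.

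The cells carried the activating kinase mutation JAK2V617F together with loss of Ezh2 (JAK2V617F/Ezh2Δ/Δ) in all 4 groups. The donors were JAK2V617F;Ezh2flox/flox;Cre-ERT2 mice, labelled C57BL/6, whose bone marrow had been grafted into wild-type recipients marked by CD45.1+ and given a lethal dose of radiation. Cre-ERT2 is a recombinase that acts once a ligand is given. After deletion of Ezh2, the enzyme that trimethylates histone H3 lysine 27, the recipients received JQ1 or its solvent DMSO for 2 weeks. Bone marrow was then sorted into LSK cells (Lineage-negative, Sca-1-positive, c-Kit-positive), which hold the stem cells and multipotent progenitors, and MEP cells, the shared progenitors of megakaryocytes and red cells. The promoter driving Cre-ERT2, the age of the mice and the number of mice behind each array are not stated in the labels. Arrays of cells with intact Ezh2 or without the JAK2 mutation were not analysed here, so every value below refers to the double-mutant background.

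Blood stem cells keep their identity through a network of transcription factors that bind each other's enhancers, and much of this network is shut down or rewired as cells commit to a lineage. Hlf, Mecom, Prdm16 and Tcf15 are known as factors concentrated in the most primitive cells, Meis1 and Mn1 as partners in homeobox-driven programmes that also act in leukaemia, and Runx1, Erg and Myb as factors used more broadly through stem cells and progenitors. JQ1 displaces the BET proteins from acetylated histones.

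Promoter windows of 4 members are printed here because they belong to the genes on which the values below turn, or show how members relate to each other in sequence. Each window runs 5′ to 3′ on the minus strand of GRCm38.p6, from 250 bases before the RefSeq start to 50 bases after it. Hlf (chr11:90390868-90391167) had the largest JQ1 difference of the members in LSK cells, and capitals mark its single match to the E-box CAGNTG, the letters read by basic helix-loop-helix factors such as Tcf15. Mecom (chr3:30509710-30510009) and Prdm16 (chr4:154636824-154637123) encode related zinc-finger proteins, and capitals mark a run of 24 bases that both windows hold. Runx1 (chr16:92826025-92826324) is shown at its upstream start, and capitals mark both matches to TGTGGT, the letters read by Runx proteins, on the reverse strand.
Hlf promoter: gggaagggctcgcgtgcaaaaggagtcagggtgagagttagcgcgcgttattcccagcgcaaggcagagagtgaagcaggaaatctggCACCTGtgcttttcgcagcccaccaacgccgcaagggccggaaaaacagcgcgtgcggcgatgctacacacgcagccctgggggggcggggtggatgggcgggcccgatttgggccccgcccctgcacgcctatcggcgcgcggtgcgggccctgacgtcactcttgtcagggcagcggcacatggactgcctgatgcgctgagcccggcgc
Mecom promoter: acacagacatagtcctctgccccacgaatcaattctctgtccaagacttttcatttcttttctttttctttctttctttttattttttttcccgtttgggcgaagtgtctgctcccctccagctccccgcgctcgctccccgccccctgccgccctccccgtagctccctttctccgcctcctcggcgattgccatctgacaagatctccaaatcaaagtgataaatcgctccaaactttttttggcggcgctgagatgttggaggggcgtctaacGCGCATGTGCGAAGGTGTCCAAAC
Prdm16 promoter: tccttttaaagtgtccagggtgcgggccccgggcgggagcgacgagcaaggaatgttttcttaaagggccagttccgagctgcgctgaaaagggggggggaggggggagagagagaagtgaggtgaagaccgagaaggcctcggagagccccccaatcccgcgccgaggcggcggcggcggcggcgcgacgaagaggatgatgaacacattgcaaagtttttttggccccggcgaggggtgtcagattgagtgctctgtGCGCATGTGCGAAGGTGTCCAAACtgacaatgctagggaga
Runx1 promoter: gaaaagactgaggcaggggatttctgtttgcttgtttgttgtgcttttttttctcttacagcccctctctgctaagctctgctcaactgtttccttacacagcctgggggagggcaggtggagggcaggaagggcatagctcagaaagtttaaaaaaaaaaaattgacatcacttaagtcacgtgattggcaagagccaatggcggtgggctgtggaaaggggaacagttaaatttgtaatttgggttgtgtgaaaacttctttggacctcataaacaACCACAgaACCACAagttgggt

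The shared run of Mecom and Prdm16 lay after the start in both genes, from base 27 to base 50 in Mecom and from base 10 to base 33 in Prdm16. Of 32851 promoter windows for 27025 genes in the RefSeq table, these were the only 2 that held it. Among the 50 pairs of windows of different members, the next longest shared run was 14 bases of a GGC repeat, which 189 windows of the table contained. Both Runx1 matches also lay after the start, from base 29 and base 37 on. In the Hlf window the E-box began 162 bases before the start.

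In all, 11 windows were found for 7 members, since Erg had 3 starts and Mecom and Runx1 had 2 each. Mn1 and Tcf15 were not among the matches. The 2 Mecom starts were 496555 bases apart and the 2 Runx1 starts 128745 bases apart. At both of these genes the starts differed in base content. The upstream Runx1 window had 2 CpG dinucleotides and 45.0% G or C, against 35 CpG and 69.0% in the second. The Mecom windows had 19 and 9 CpG. Myb, with 40 CpG and 75% G or C, and Hlf, with 30 CpG and 67.3%, lay above the median window of the table, which had 7 CpG and 52.7%.

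Letters read by the members themselves were searched on both strands of the 11 windows. TGTGGT (Runx) was found in 2 windows and in 16.8% of the table, CGGAAG (ETS factors such as Erg) in 2 and 16.9%, and TGACAG (Meis1) in 2 and 19.2%. CAGNTG (E-box) was found in 5 windows and 51.4% of the table, and CAACTG (Myb) in 1 and 13.7%. The reverse strand of CAACTG reads CAGTTG and so also counts as an E-box. TTANGTAA, the PAR bZIP letters of Hlf, was in 0 of the 11 windows and in 2.32% of the table. AGATAA, read by Gata factors, was in 1 window and 11.2% of the table. These matches describe letters within 300 bases and say nothing of binding.

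The arrays were read as the scanner software's processed signal, given as a log2 level over the array's own 75th percentile, so that 0 is the signal of that percentile. Values for all 4 arrays are always listed in 1 order, first LSK cells with DMSO and then with JQ1, followed by MEP cells with DMSO and then with JQ1. The percentiles were signals of 210, 245, 327 and 233, and between 45.2% and 53.2% of 55681 probes were well above background. A level belongs to 1 probe and is set only against the same probe on another array. Differences were centred on the median measured gene, which had shifted by 0.06 in LSK cells and 0.34 in MEP cells under JQ1. The same median gene lay at -0.22 between MEP and LSK under DMSO and at 0.07 between them under JQ1. Without centring, scaling to the median probe put these shifts at 0.26, 0.75, -0.32 and 0.19, and scaling to the spike-in probes at 0.52, -0.56, 0.88 and -0.19. A member was counted as higher or lower from 2-fold, or 1 on the log2 scale, and as measured where its brightest probe was well above background on both arrays. The software's error of a difference was close to 0.20 for bright probes. Probes of 1 gene varied by a within-gene SD of 0.26 in the LSK comparison and 0.39 in the MEP comparison, and of 0.38 and 0.46 for dim probes. Both are errors of measurement, not of animals.

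The labels were checked by markers. Signal summed over 12 MEP genes, in units of the 75th percentile, was 44.3 and 41.9 on the LSK arrays and 283 and 349 on the MEP arrays. Summed signal of 10 LSK genes was 326 and 416 on the LSK arrays and 170 and 186 on the MEP arrays. Cd34 was the brightest of the 10 on every array and weighed most in these sums. Gene by gene, 7 of 10 were lower in MEP relative to the median gene under DMSO and 9 of 10 under JQ1. Slamf1 read 2.35 and 1.18 higher in MEP. The DMSO MEP array stood apart. Over 23013 probes it correlated with the others at 0.973 to 0.976, whereas the remaining pairs ran from 0.979 to 0.991. Its summed signal over 9 immediate-early genes, which cells switch on within minutes of stimulation, was 419 against 113 to 141 on the other 3 arrays. All 9 were at least 2-fold lower on the JQ1 MEP array. As the only array of its group, it could not be left out, and its part in the MEP differences was not tested. Ezh2 itself read 3.36, 3.42, 3.31 and 3.69 in the array order above. Since the place of its probe relative to the floxed exons could not be looked up, these levels check nothing.

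**Figure D1:**
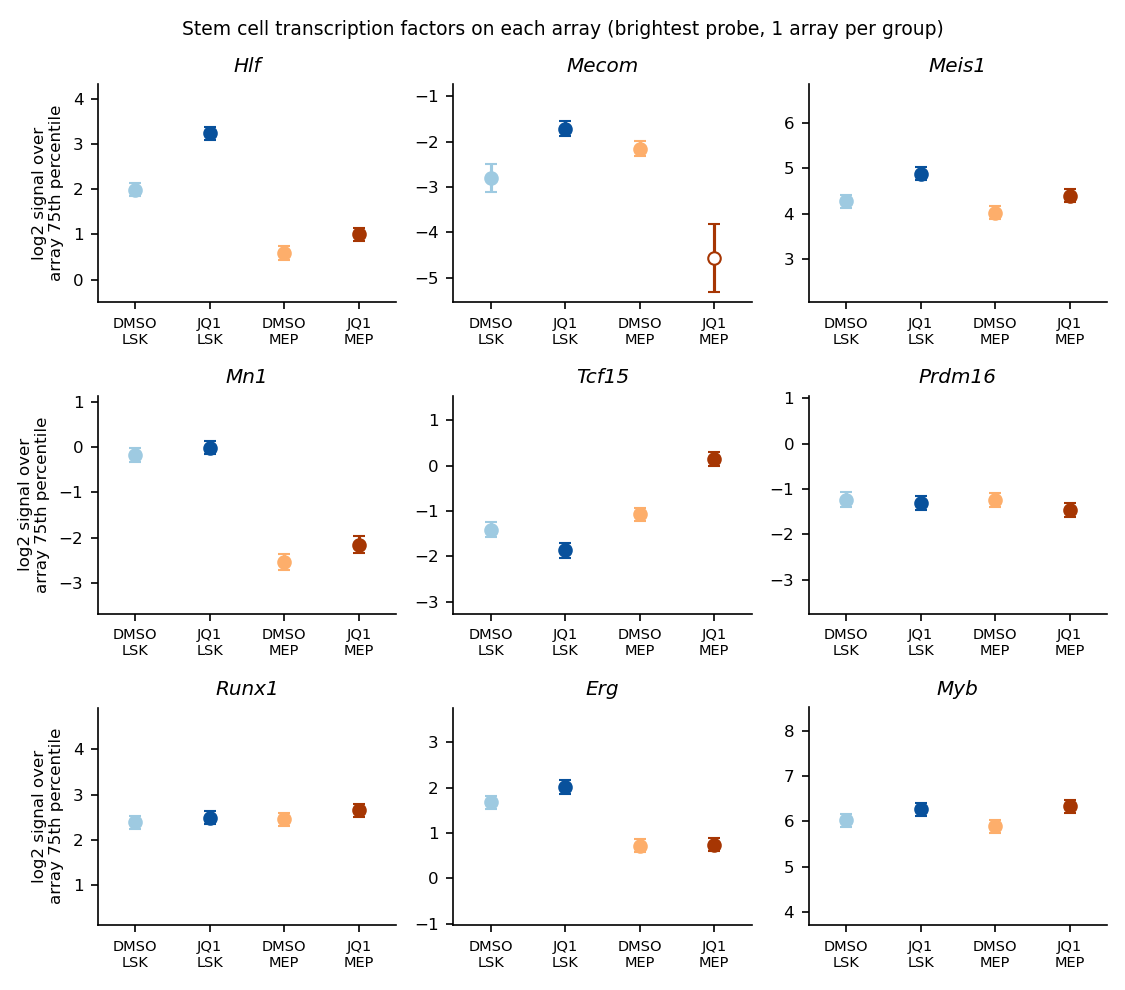
Level of each of the 9 factors on the 4 arrays, as log2 of the processed signal over the array's 75th percentile, by its brightest probe. Bars are the software's error of the spot and hollow points were not well above background. Hlf peaks at 3.23 on the JQ1 LSK array, Mn1 is low on both MEP arrays, and Mecom is not above background on the JQ1 MEP array.

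Hlf, a PAR bZIP factor that marks stem cells with long-term repopulating activity, was higher in LSK cells after JQ1 and lower in MEP than in LSK cells. Its levels were 1.99 and 3.23 in LSK cells (DMSO, then JQ1) and 0.59 and 1.01 in MEP cells, which were processed signals of 835, 2294, 492 and 468. Both LSK arrays thus lay above both MEP arrays, and the JQ1 LSK array stood clear of all others. The share of all genes with their arrays in such an order was not counted. In LSK cells Hlf was 2.26-fold higher with JQ1, a centred difference of 1.18 with an error of 0.20. Only 42 of 12328 measured genes (0.341%) were as high or higher in that comparison. In MEP cells the difference was 0.08, within the error. MEP cells were 2.27-fold lower than LSK cells under DMSO and 4.90-fold lower under JQ1. In bulk RNA, fewer cells of a type and less RNA per cell cannot be told apart. Hlf rested on 1 probe.

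Mecom, the locus of the zinc-finger factor Evi1 and its longer Mds1-Evi1 form, is needed for stem cell self-renewal. It was dim on every array, so its values are the least precise of the 9. Its levels were -2.80, -1.71, -2.15 and -4.56, from signals of 30.1, 74.6, 73.5 and 9.85. The last was not well above background, and the software's error was 20.8%, 11.9%, 11.8% and 51.8% of the signal. Mecom was thus highest on the JQ1 LSK array and indistinct from background on the JQ1 MEP array. In LSK cells the centred difference was 1.03 with an error of 0.35, or 2.04-fold higher with JQ1, at the edge of the 2-fold limit. Read against the lowest signal well above background, JQ1 MEP was at least 3.56-fold lower than DMSO MEP and at least 4.0-fold lower than JQ1 LSK. Under DMSO, MEP read 1.83-fold higher than LSK. The first bound and this fold take in the DMSO MEP array, which stood apart. A probe on a different Mecom transcript read -3.84, -3.99, -3.15 and -5.78 and was well above background on DMSO MEP alone. It did not repeat the higher reading in JQ1 LSK cells (-0.22, neither spot well above background), and its 3 other arrays, not well above background, have no order. Averaging both probes gave 0.41 in LSK cells, and background correction by normexp gave 0.36, so the call of Mecom depended on both choices.

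Prdm16, the closest relative of Mecom in the set, is a zinc-finger factor that preserves fetal and adult stem cells and also directs brown fat identity. Its levels were -1.23, -1.31, -1.24 and -1.46, in the same array order. No array stood out. The difference with JQ1 was -0.14 in LSK cells and -0.56 in MEP cells, the latter 1.47-fold lower, and MEP differed from LSK by 0.21 under DMSO and by -0.22 under JQ1. The dim-probe spread of 0.46 in the MEP comparison was close to its largest difference. On its brightest probe Mecom parted from Prdm16 in LSK cells, at 1.03 and -0.14. That parting depended on the probe and the processing, since the other Mecom probe read -0.22 there and normexp gave Mecom 0.36. Relative to the median gene both read lower in MEP cells with JQ1, Prdm16 by only -0.20 with quantile normalization.

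Tcf15, a basic helix-loop-helix factor first known from the somites of the embryo and later from quiescent stem cells of the mouse, differed from Hlf in both populations. Its levels were -1.42, -1.87, -1.07 and 0.15. The JQ1 MEP array was the highest and the JQ1 LSK array the lowest, so JQ1 went with opposite signs in the 2 populations. In LSK cells Tcf15 was 1.43-fold lower with JQ1 (-0.52, error 0.23) and in MEP cells 1.84-fold higher (0.88, error 0.21), where 172 of 12549 genes (1.37%) were as high or higher. JQ1 MEP was 3.86-fold above JQ1 LSK, whereas under DMSO the same step was 0.56. Without centring the signs were still opposite (-0.45 and 1.22), and likewise after scaling to the median probe (-0.26 and 1.63), but after scaling to the spike-in probes the differences were 0.00 and 0.32. A factor named for stem cells read higher in the committed progenitor than in the LSK fraction, under both treatments. The step under DMSO was close to that comparison's dim-probe spread of 0.46 and was 0.21 with normexp. It also takes in the DMSO MEP array that stood apart.

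Meis1, a homeodomain partner of the Hox proteins, showed the largest member difference in LSK cells after Hlf and Mecom. It read 4.27, 4.88, 4.02 and 4.40. Its JQ1 LSK array was highest. The JQ1 difference in LSK cells was 0.55 (1.46-fold, error 0.20), a size reached by 2.69% of measured genes on the high side, and that in MEP cells was 0.04. MEP cells were level with LSK cells under DMSO (-0.04) and 1.47-fold lower under JQ1. Meis1 was read by 1 bright probe, for which the within-gene spread of the LSK comparison was 0.14.

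Mn1, a transcriptional coactivator whose overexpression blocks myeloid differentiation, separated the populations rather than the treatments. It read -0.18 and -0.01 on the LSK arrays and -2.54 and -2.15 on the MEP arrays. Here too both LSK arrays lay above both MEP arrays, an order whose share among all genes was not counted. MEP cells were 4.41-fold lower under DMSO, where 53 of 12407 genes (0.427%) were as low or lower, and 4.63-fold lower under JQ1, where 46 of 12262 (0.375%) were. With JQ1, Mn1 read 0.11 in LSK and 0.04 in MEP cells, both within the error of the software. Normexp, which compresses dim probes, gave -1.45 between MEP and LSK under DMSO and -1.44 under JQ1, still past 2-fold.

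Runx1, Erg and Myb, which act beyond the stem cell as well, all stayed within 2-fold with JQ1, as did most measured genes. Of all genes, 0.543% were higher and 3.22% lower by 2-fold in LSK cells, and 0.98% and 5.77% in MEP cells. Runx1, the runt factor that founds definitive blood formation, read 2.39, 2.49, 2.45 and 2.65, and its second probe 1.95, 1.96, 1.78 and 1.91. Over both probes the centred differences of the 4 comparisons ran from -0.20 to 0.28. Myb, a factor of proliferating progenitors, read 6.03, 6.27, 5.90 and 6.33, and its centred differences lay between -0.00 and 0.18. After centring, the spans of Runx1 and Myb over the 4 arrays, 0.21 and 0.18, were the smallest of the 8 members measured on every array.

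Erg, an ETS factor required to sustain stem cells, was lower in MEP than in LSK cells on both of its probes, relative to the median gene. The brighter probe read 1.68, 2.01, 0.72 and 0.74, and the other, on the same transcript, -0.52, 0.01, -1.35 and -1.54. On each probe both LSK arrays lay above both MEP arrays, and again the share of all genes in that order was not counted. Under JQ1 the MEP level was 2.53-fold lower on the brighter probe and 3.07-fold lower on the other, and under DMSO 1.67-fold and 1.53-fold lower. Between MEP and LSK under DMSO, uncentred spike-in scaling put the median gene itself at 0.88, a larger size than the brighter probe's centred -0.74. With JQ1 itself, Erg read 0.27 and 0.47 in LSK cells and -0.32 and -0.52 in MEP cells. Relative to the median gene both probes thus gave opposite signs in the 2 populations, but without centring the MEP value of the brighter probe was 0.02, and 0.44 after scaling to the median probe. After uncentred scaling to the spike-in probes the signs were again opposite, at 0.79 and -0.88. The MEP values also take in the array that stood apart.

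**Figure D2:**
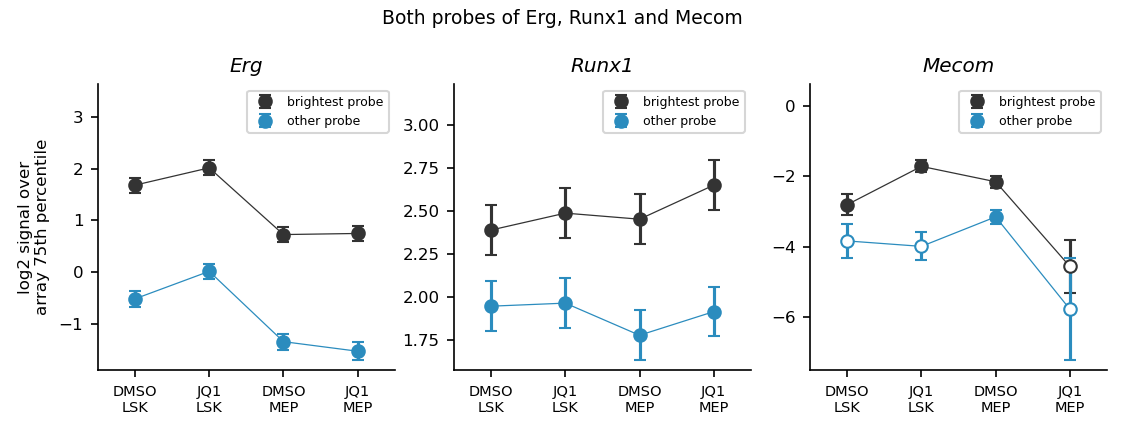
Levels of Erg, Runx1 and Mecom on the 4 arrays by each of their 2 probes, as log2 of the processed signal over the array's 75th percentile, with the software's error as bars. Hollow points were not well above background. The Erg probes run in parallel, whereas the other Mecom probe was well above background on the DMSO MEP array alone.

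Taking the members side by side in LSK cells, 2 of 9 measured members, Hlf and Mecom, were at least 2-fold higher with JQ1 and none was 2-fold lower. Of all 12328 measured genes, 0.543% were that much higher and 3.22% that much lower. Of the 9, 7 lay above the median gene, and their median difference was 0.18, between the 10th and 90th percentiles of all genes at -0.48 and 0.31. The differences ran from -0.52 for Tcf15 to 1.18 for Hlf. Markers of B cells moved with this comparison. Their summed signal was 157 on DMSO LSK and 38.9 on JQ1 LSK, all 6 measured B-cell markers were at least 2-fold lower, and Pax5 was not above background on any array. Of 8 myeloid markers, 3 were at least 2-fold lower and 1, S100a9 at 1.47, was higher, with a median of -0.72 and sums of 1861 and 1145. Of 4 measured T and NK cell markers, Cd3d at -1.73 and Klrd1 at -1.51 were at least 2-fold lower and the median was -0.97, while the sums of 67.8 and 70.2 were mostly Nkg7, which read 0.04. Of 4 measured endothelial and stromal markers none passed 2-fold and the median was 0.19. Their sums of 32.7 and 24.2 were mostly Kdr, at -0.55, and Cdh5 was not above background on any array. Cxcl12, a stromal marker, was well above background on JQ1 LSK alone, so it was not among the 4. It read -2.22 there and -5.28 on DMSO LSK. The part of these cells in the member differences was not tested.

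In MEP cells, 0 of 8 measured members passed 2-fold with JQ1 in either direction, beside 0.98% of 12549 genes higher and 5.77% lower. Mecom was the ninth, with the bound above. The members' median was 0.04, close to 0, with 5 above the median gene and 3 below, and all genes ran from -0.71 to 0.43 between the 10th and 90th percentiles. Tcf15 at 0.88 was the highest member and Prdm16 at -0.56 the lowest. Without centring, 373 genes were higher and 367 lower in place of 123 and 724, and Tcf15 passed 2-fold. B-cell markers were lower here too, with 5 of 6 measured past 2-fold and sums of 56.4 and 23.5. Of 8 myeloid markers 2 were higher and 1 lower by 2-fold, with a median of 0.46 and sums of 1241 under DMSO and 2218 under JQ1. None of 5 T and NK cell markers passed 2-fold, and their median was -0.23, although the sums were 56.0 and 93.0, mostly Nkg7, at 0.42. Of 3 measured endothelial and stromal markers, Emcn at -1.72 and Pecam1 at -1.29 were at least 2-fold lower, while the sums of 15.1 and 21.7 were mostly Kdr, at 0.25. Their part in the MEP differences was not tested.

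**Figure D3:**
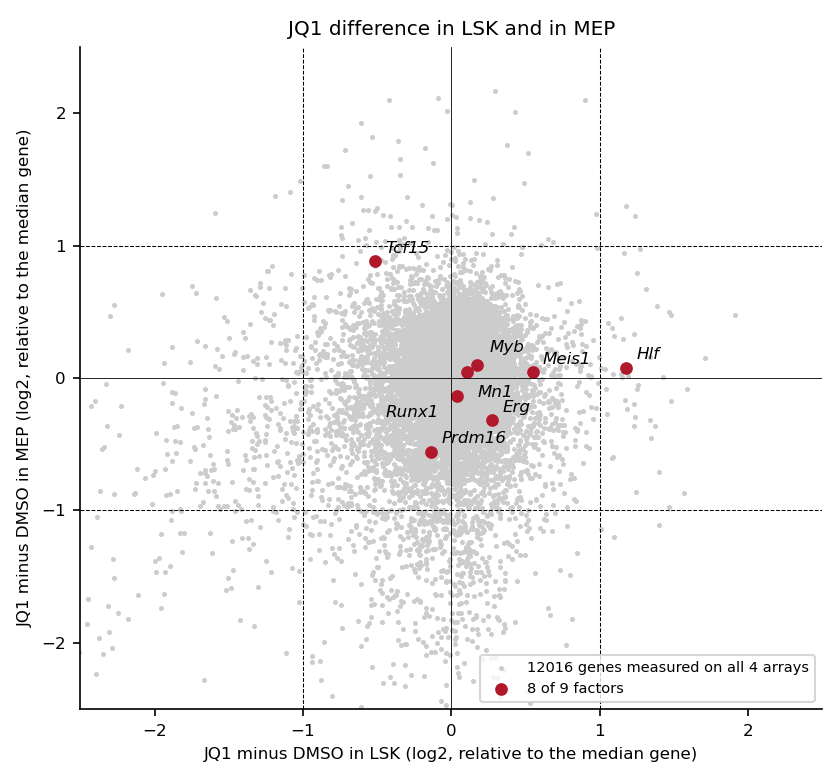
Centred log2 difference with JQ1 in LSK cells (horizontal axis) and in MEP cells (vertical axis), with every gene measured on all 4 arrays in grey, the factors in colour and lines at 2-fold. Hlf lies to the right at 1.18 and 0.08, and Tcf15 at the upper left at -0.52 and 0.88. Mecom is missing because it was not above background on the JQ1 MEP array, and 43 genes lie beyond the axes.

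Set against each other, the signed JQ1 difference was lower in MEP than in LSK cells for 7 of 8 members measured on all arrays, which for Prdm16, Erg and Runx1 meant a larger size below the median gene. The MEP value minus the LSK value was -1.10 for Hlf, -0.59 for Erg, -0.50 for Meis1, -0.42 for Prdm16, -0.17 for Runx1, -0.08 for Myb and -0.06 for Mn1, and 1.40 for Tcf15. Hlf and Tcf15 thus formed the extremes. The member median was -0.30, against 0.01 for 12016 genes, whose 10th and 90th percentiles were -0.72 and 0.56. With 1 array in each group, this contrast between populations could not be tested. Its sign followed the scaling, since without centring the member median was 0.20 after scaling to the median probe and -1.37 after scaling to the spike-in probes.

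Between the populations under DMSO, 2 of 9 members, Mn1 and Hlf, were at least 2-fold lower in MEP than in LSK cells and none was higher. Of 12407 genes, 4.32% were that much lower and 5.68% higher. The member median was 0.08, with 5 members above and 4 below the median gene. This comparison takes in the DMSO MEP array that stood apart, on which 8 of 9 immediate-early genes were at least 2-fold higher than in LSK cells. B-cell markers were lower in MEP cells here, 4 of 6 measured past 2-fold with a median of -1.15, and under JQ1 1 of 6 was, with a median of -0.74. Their part in the member differences was not tested. Under JQ1, 3 of 8 measured members (Hlf, Mn1 and Erg) were lower in MEP and 1 (Tcf15) higher, beside 4.01% and 3.94% of 12262 genes. The member median was -0.39, and 6 of 8 lay below the median gene. These comparisons share arrays with the JQ1 comparisons, so the 4 sets of values are not independent. Without centring, the all-gene split under DMSO was 481 higher and 905 lower in place of 705 and 536.

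**Figure D4:**
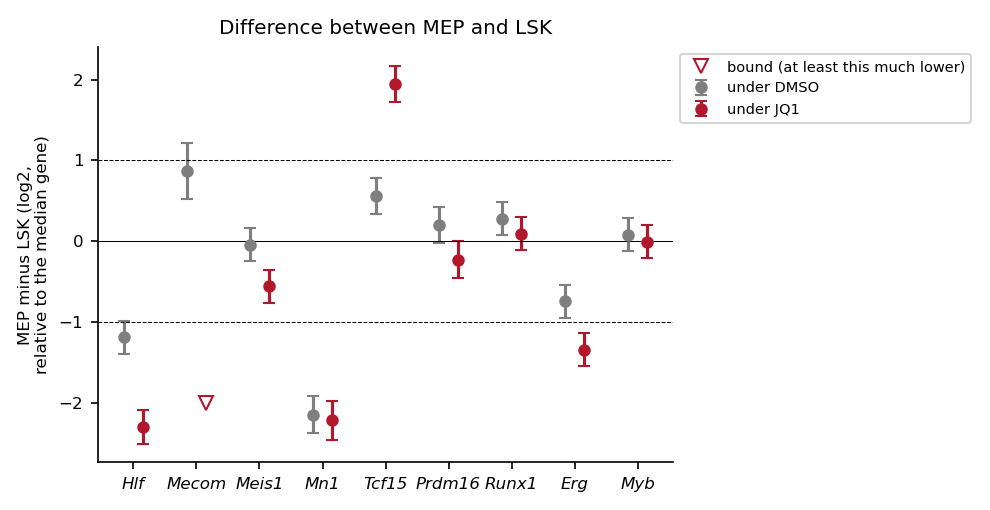
Centred log2 difference between MEP and LSK cells for each factor, under DMSO and under JQ1, with bars for the software's error and dashed lines at 2-fold. Mn1 lies near -2.14 and -2.21 under both treatments, Hlf at -1.18 and -2.29, and Tcf15 at 0.56 and 1.95.

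The partners with which these factors share enhancers stayed within 2-fold with JQ1, as did most measured genes. Those past 2-fold were 0.543% higher and 3.22% lower in LSK cells, and 0.98% and 5.77% in MEP cells. The remaining proteins of the stem cell heptad, a group that binds DNA together with Erg and Runx1, were Gata2, Tal1, Lyl1, Lmo2 and Fli1. None of the 5 passed 2-fold with JQ1 in either population. In LSK cells they ran from -0.01 for Fli1 to 0.40 for Lyl1, with a median of 0.34, and in MEP cells from -0.01 for Gata2 to 0.36 for Tal1. Tal1, which also drives red cell formation, was 1.04 higher in MEP than in LSK cells under DMSO and 1.05 higher under JQ1. Lyl1, its relative, ran the other way at -0.70 and -0.97.

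Of 10 cofactors, which hold binding partners of Meis1, Runx1 and the basic helix-loop-helix factors and the acetyltransferases Ep300 and Crebbp, none passed 2-fold in any comparison. Of all measured genes, too, at most 5.77% passed 2-fold in either direction of a comparison. The cofactors' median with JQ1 was 0.09 in LSK and 0.16 in MEP cells. In LSK cells Ep300 was lowest at -0.49 and Pbx3, a partner of Meis1, highest at 0.45.

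Of 14 relatives of the members, 11 were measured, and Meis2, Scx and Mybl1 were not. Their median with JQ1 was 0.10 in LSK cells and 0.00 in MEP cells. Ets1, a lymphoid ETS factor related to Erg, was the only one past 2-fold with JQ1, at -1.15 in LSK cells beside the lower B-cell markers. It read 0.27 in MEP cells. In LSK cells 3.22% of all measured genes were at least 2-fold lower and 0.543% higher. Among the PAR bZIP relatives of Hlf in LSK cells, Tef read 0.38 and Dbp -0.02. The Runx1 relative Runx2 was 1.14 lower on the log2 scale in MEP than in LSK cells under JQ1.

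A wider list held 17 other stem cell regulators, the Hox genes among them. With JQ1 in LSK cells, 13 of 17 lay above the median gene and 4 below, with a median of 0.25. None was past 2-fold, beside 0.543% of measured genes higher and 3.22% lower. Msi2, an RNA-binding regulator of self-renewal, and Ikzf2, an Ikaros-family factor, were highest at 0.60 each, and Foxo3 was lowest at -0.16. In MEP cells 11 of 16 measured lay below the median gene, with a median of -0.27. There Hmga2, a chromatin protein of fetal stem cells, was lowest at -0.77 and Gata3 highest at 0.93. MEP cells under JQ1 held 6 of these 16 at least 2-fold lower than LSK cells under JQ1, among them Nkx2-3 at -2.03, Hmga2 at -1.38 and the Hox genes Hoxa9 and Hoxa10 at -1.06 and -1.12. Zbtb16 alone was higher, at 1.15. Of 12262 measured genes, 4.01% were at least 2-fold lower in that comparison and 3.94% higher.

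Factors of committed lineages were led by those of the red cell and platelet branches. Of 9 measured, Gata1, Klf1 and Gfi1b, the erythroid and megakaryocytic regulators, were 2.61, 3.79 and 1.41 higher in MEP than in LSK cells under DMSO. Cebpe, a granulocyte factor, was 1.37 higher. In that comparison 5.68% of all measured genes were at least 2-fold higher and 4.32% lower. With JQ1 in LSK cells 2 of 9 were at least 2-fold lower, the B-cell factor Ebf1 at -2.35 and the monocyte and dendritic cell factor Irf8 at -1.47. The shares of all genes there were 3.22% lower and 0.543% higher. In MEP cells Ebf1 read -2.08, where 5.77% of measured genes were at least 2-fold lower. Gata1 and Klf1 read 0.72 and 0.75 in MEP cells with JQ1 and -0.23 and -0.22 in LSK cells.

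Among 15 genes known as targets of the members, 3 were at least 2-fold lower with JQ1 in LSK cells and none was higher. These were the macrophage receptor Csf1r at -1.60, the platelet factor Pf4 at -1.24 and the neutrophil elastase gene Elane at -1.09. Over all measured genes, 3.22% were that much lower and 0.543% that much higher. The list median was -0.13, and the stem cell receptor genes Kit and Flt3 read -0.09 and -0.13. In MEP cells Elane was 1.40 higher and Bcl2, the survival gene, 1.00 lower, and the median was -0.06. There 0.98% of measured genes were at least 2-fold higher and 5.77% lower. Gata2, Sox4 and Spi1 were among the genes that belonged to this list and to another one above. Csf1r and Elane were also myeloid markers, Pf4 an MEP marker, and Kit and Flt3 LSK markers. Their values are therefore the same as those in the marker counts above. Of the lineage factors, Ebf1 was likewise a B-cell marker, and Gata1 and Klf1 were MEP markers.

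**Figure D5:**
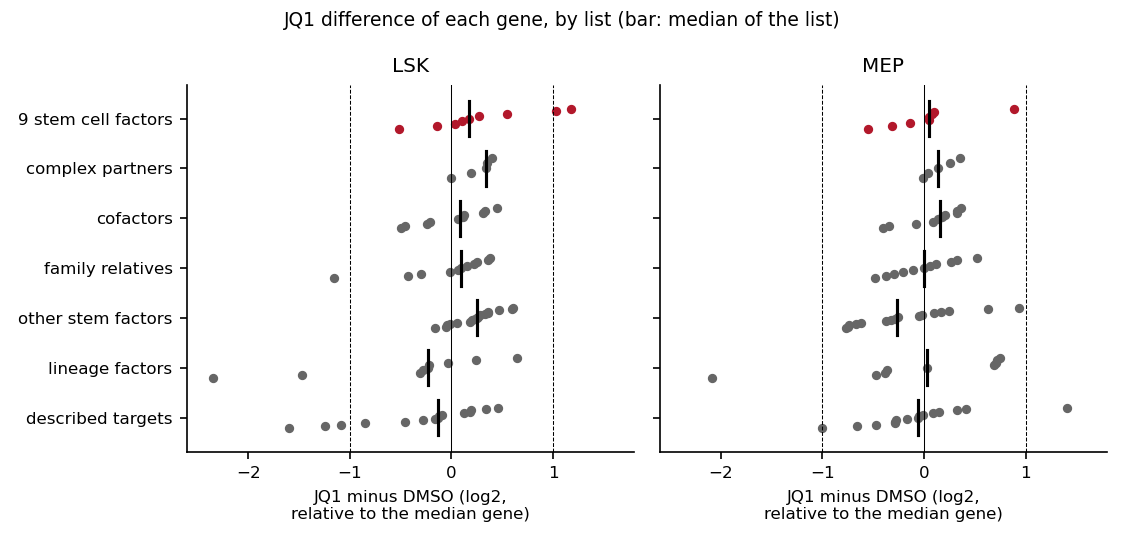
Centred log2 difference with JQ1 for the factors and 6 related gene lists, in LSK and in MEP cells, with 1 point for each measured gene, a bar at the list median and dashed lines at 2-fold. Hlf and Mecom are the only factors past 2-fold in LSK cells, and none is past it in MEP cells.

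The genes most like each member over the 4 arrays were found by distance after each gene's own mean was removed, among 12016 genes measured on all arrays and for members that spanned at least 1 on the log2 scale. Hlf, with a span of 2.42, was closest to Klhl4, Gas6 and Grrp1, at distances of 0.12, 0.24 and 0.26 where the median gene lay at 1.98. Klhl4 was -1.87, -0.77, -3.40 and -3.0 in the order of arrays given above, so it too was highest on the JQ1 LSK array. Mn1 was closest to C77080, Rasal1 and Calcrl, at 0.21, 0.22 and 0.24. Tcf15 had Prl2c1, Cited4 and Ncam1, at 0.28, 0.29 and 0.29. Erg had Tspan13, Mctp2 and Sox4, at 0.05, 0.05 and 0.07. These likenesses rest on 4 values for each gene. Meis1, Prdm16, Runx1 and Myb spanned 0.65 or less.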

How the data were processed

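Gene expression of 4 sorted populations was measured on 4 one-colour arrays after amplification and Cy3 labelling of 20 ng of RNA, per the labels. Per the file headers, Agilent software (Feature Extraction 10.7.1.1) read the scans under protocol GE1_107_Sep09, on design 028005 with probe positions of mm9. The deposited scanner output holds background-subtracted processed signals, spot and background signals and the software's error as intensity, and yes or no marks of other kinds (well above background, saturated, outlier), per the file headers. The authors' deposited table holds a linear ratio to 1 number per array. Its 75th percentile was 1.002 to 1.003, and all probes with a value above 1 were within 1% of that scaling. The tool behind it is not named in the labels.

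Processed signals were put on the log2 scale, averaged over unmarked replicate spots of a probe and reduced by each array's 75th percentile. Probes were named through the RefSeq tables of GRCm38.p6, used for symbols and promoter windows only. Each array had 62976 spots, and no probe was saturated. The brightest probe over the arrays stood for each gene, and all differences were centred on the median measured gene. Bounds used the lowest signal well above background. The members and lists were chosen with earlier results of these data known. All members were named, and of each other list the highest and lowest genes and those past 2-fold could be named, and other list genes were chosen after their values were seen. Some genes of the lists enter counts and medians but are not reported here by name. For likeness the 3 nearest genes were named. With 1 array per group there was no p-value and no SD, and the number of arrays limits the precision. In all, 11 alternatives were run (normexp with an offset of 50, quantile normalization, other scalings, filters, probe averaging, the deposited table and centring). The files hold no spot mean signal, so normexp used the spot median. Python 3.11.15, numpy 2.4.6, pandas 2.3.3, R 4.3.3 and limma 3.58.1 were used.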

Additional observations from a re-analysis of the deposited data

Results flagged for a closer look

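Among the members and related lists, 14 genes read in opposite directions with JQ1 in LSK and in MEP cells, each by more than the software's error of its difference. The contrast was not tested, as every group was 1 array, and each MEP value takes in the DMSO MEP array that stood apart. The share of such genes among all 12016 genes measured on every array was not counted. The 14 may therefore not be particular to these lists. In the pairs below the LSK difference comes first and the MEP difference second, both centred and on the log2 scale. The signs depend on the centring. Without it, 10 of the 14 kept opposite signs, and Erg, Ikzf2, Hoxb4 and Cd34 did not. Uncentred scaling to the median probe left 5 (Tcf15, Ets1, Hmga2, Mpo and Elane), and uncentred scaling to the spike-in probes left 10, without Tcf15, Ets1, Gata1 and Mpo. Elane and Hmga2 were the 2 that had opposite signs under all 3. The MEP values of Erg, Tef, Ets1, Ikzf2, Hoxa7, Hoxb4 and Cd34 lay within the spread of 0.39 between probes of 1 gene. Of the LSK values, that of Gata1 lay within the LSK spread of 0.26.

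Lower in LSK and higher in MEP cells were Tcf15 (-0.52 and 0.88), the ETS factor Ets1 (-1.15 and 0.27), the erythroid factor Gata1 (-0.23 and 0.72), and the granule genes Mpo (-0.85 and 0.41) and Elane (-1.09 and 1.40). Higher in LSK and lower in MEP cells were Erg (0.27 and -0.32), the Hlf relative Tef (0.38 and -0.37), Ikzf2 (0.60 and -0.25), the surface marker gene Cd34 (0.34 and -0.29), and Hmga2 (0.47 and -0.77). Of the same sign pattern were the Hox genes Hoxa7 (0.27 and -0.37), Hoxa9 (0.36 and -0.62), Hoxa10 (0.36 and -0.74) and Hoxb4 (0.28 and -0.32).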

How the results depend on the processing

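No paired analysis was possible because each group had 1 array. Scaling to the median probe or to the spike-in probes leaves centred differences as they are by construction, so only the uncentred forms are counted. Of 117 summary values 96 moved by less than the spread between probes (counts by less than 1.5 times) and 21 by more, and of 288 values for single members 238 and 50. No member past 2-fold changed sign, but 7 member medians and 37 values of members within 2-fold did. The median in MEP cells, close to 0, was -0.15 with quantile normalization and -0.04 without the background filter and with brighter genes only. The median between MEP and LSK under DMSO was -0.13 without centring and -0.24 with uncentred median scaling. In LSK cells the count of members higher by 2-fold was 1 in place of 2 with normexp, with brighter genes only and with the mean over probes. In MEP cells 1 member was higher with quantile normalization, without centring, and without centring after median scaling, and 1 was lower without the background filter and with uncentred spike-in scaling. Between MEP and LSK under DMSO, 1 member was higher without the filter, 4 were higher and 1 lower with uncentred spike-in scaling, and 1 was lower with brighter genes only. Under JQ1 that last setting left 0 higher and 1 lower, because it removes members below the median signal of measured genes, Mn1, Tcf15 and Erg among them. Uncentred median scaling gave member medians of 0.43 in LSK and 0.80 in MEP cells and 0.20 for the MEP minus LSK contrast. Uncentred spike-in scaling gave 0.69, -0.52 and -1.37, and 0.96 between MEP and LSK under DMSO. The cause was not tested. Normexp and the uncentred scalings to the median probe and to the spike-in probes were chosen after seeing the data.

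Over the centred alternatives, Hlf in LSK cells ranged from 1.08 to 1.32, Mecom from 0.36 to 1.18 and Tcf15 in MEP cells from 0.74 to 1.13. Mn1 between MEP and LSK under DMSO ranged from -2.40 to -1.45. With normexp, 8 genes of the array were higher and 173 lower in LSK cells, in place of 67 and 397. Without the background filter these were 717 and 1276. In MEP cells normexp gave 52 and 310 in place of 123 and 724. Mecom, Mn1, Tcf15 and Prdm16 lay in the dim range on some or all arrays, where signal over background limits precision.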
